A study of Pyrus calleryana with 9 samples.

Results

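Seeds of callery pear that had only been imbibed were compared with seeds that had gone through the whole cold treatment, across all 59552 annotated genes. The 3 libraries of 0 d came from seeds that had taken up water for 24 h and had no cold. The 3 libraries of 50 d came from seeds imbibed in the same way and then kept for 50 d on wet filter paper at 4 °C. Each library was made from its own bulk of whole seeds, collected from trees grown in a university garden, so embryo, endosperm and seed coat were measured together. The series also holds 3 libraries of 20 d, 9 in all, which entered the estimate of the spread and are quoted only to place a gene between the endpoints. No seeds were kept wet without cold for 50 d, so the effects of cold and of time in water cannot be told apart in this comparison.

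A dormant seed does not germinate when given water and warmth, and in many trees of the rose family moist cold, called stratification, ends this state. The dry seed carries stored transcripts together with proteins and oil laid down during maturation, among them oleosins that coat oil bodies and late embryogenesis abundant (LEA) proteins that protect cells during drying. Abscisic acid is known to hold seeds dormant and gibberellin to promote germination, after which reserves are broken down, cell walls loosen and the seedling begins to make chloroplasts.

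A filter on low counts left 28339 genes, and these genes entered edgeR's quasi-likelihood test. A gene was called changed at a Benjamini-Hochberg adjusted p of at most 0.01 with a log2 change of 1 or more in either direction, and with a mean of at least 1 FPKM (fragments scaled by gene length and library size) in at least 1 of the 2 stages. Besides these calls, 4 groups were described by their levels alone. Genes that came on had no count in any 0 d library, at least 10 counts in every 50 d library and a mean of at least 1 FPKM at 50 d. Lost transcripts had a mean of at least 50 FPKM at 0 d and kept at most 10% of it at 50 d. The mirror images are called genes that went off and gained transcripts. These 4 groups were defined by the very values compared, so their size is a description and carries no test. Adjusted p-values printed for their members are no separate support, since the members were picked for a large change in the same libraries. Levels are given in FPKM, which is scaled by gene length, and log2 fold changes come from the fit to counts. The FPKM summed over all genes was itself lower at 50 d, with a mean of 727230 against 977578 at 0 d. Sums of FPKM over a list were not corrected for this, so modest differences in such sums carry no direction. Gene positions are those of the wild pear (Pyrus betuleafolia) assembly used by the authors. Genes named beyond the rule given in the methods were chosen after their values were seen.

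The libraries of both stages were of similar depth, with 13893019 to 16228340 counts in genes. Each library detected 33114 to 35663 genes. On log2 values, replicates correlated at 0.954 to 0.967 at 0 d and at 0.900 to 0.962 at 50 d, against 0.662 to 0.777 between the stages. The 20 d replicates correlated at 0.8825 to 0.9755. Replicate B of 20 d correlated at 0.8825 and 0.8923 with A and C of 20 d. With A, B and C of 0 d it correlated at 0.8809, 0.8789 and 0.8955. Long genes took more of the counts in replicates A and B of 50 d than at 0 d, but not in replicate C of 50 d. The mean gene length weighted by counts was 1038 to 1148 bases at 0 d, and 1400, 1335 and 1076 bases in replicates A, B and C of 50 d. In A, B and C of 20 d it was 1358, 1053 and 1327 bases. The median log2 change was -0.36 in the shortest tested genes (150 to 1151 bases), 0.13 in those of 1152 to 1916 bases and 0.60 in longer ones. Over all tested genes it was 0.16, and it became -0.16 when the trend with gene length was removed. The part of gene length in the results below was not tested beyond that refit. The seeds carried the transcripts that mark mature seed tissue, since oleosin 1 and the dehydrins given below were among the most abundant transcripts at 0 d.

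Many transcripts differed in level between the endpoints. Of the 28339 tested genes, 7536 were called (26.6%), of which 4422 were higher at 50 d (15.6% of tested genes) and 3114 lower (11.0%). Replicates of the stages did not overlap for 7533 of the called genes, against 55.6% of all tested genes. The rises were the larger changes. A log2 change of at least 3 was reached by 2037 genes that rose and 766 that fell, and one of at least 5 by 759 and 145. The balance of rises and falls depended on the scaling and on the limit for level. Rises made up 58.7% of the calls as fitted, 44.7% with the length trend removed (4296 higher, 5313 lower) and 48.2% among calls with at least 1 FPKM in both stages. The number of calls also depended on single libraries, with 4899 without replicate C of 0 d, 5007 without replicate A of 50 d and 4814 without replicate B of 50 d. The rises numbered 2808 without replicate A of 0 d and 2756 without replicate C of 0 d, and the falls 1705 without replicate A of 50 d and 1607 without replicate B of 50 d.

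**Figure D1:**
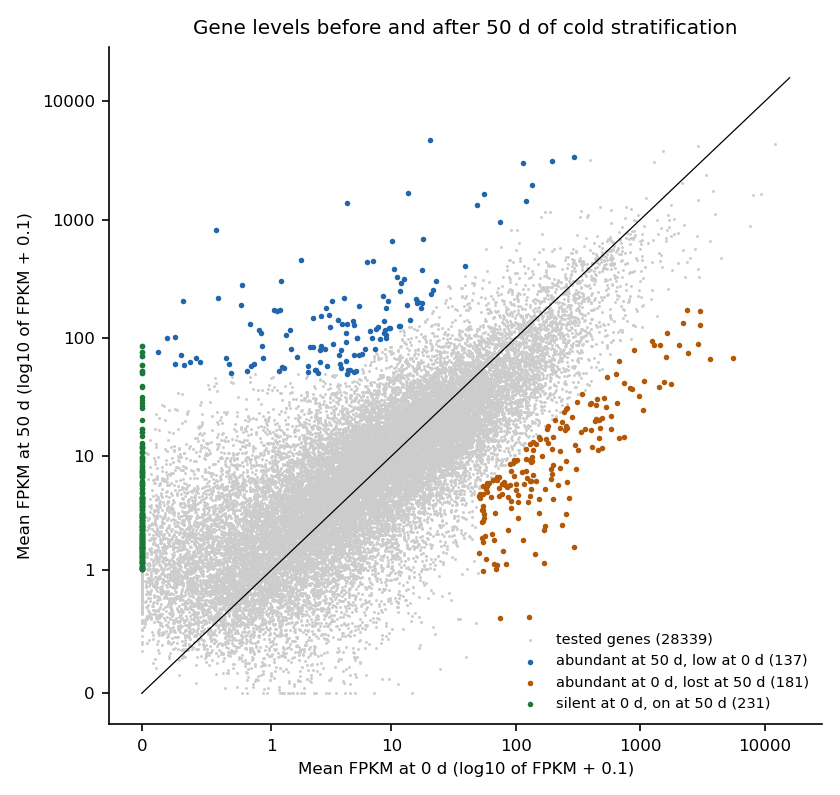
Mean level of each gene at 50 d (vertical, FPKM) against its mean level at 0 d (horizontal, FPKM), both as log10 of FPKM + 0.1, with the genes that came on, the lost and the gained transcripts in colour. The 231 genes that came on lie along the left edge at 1.01 to 85.6 FPKM, and the 181 lost transcripts lie low on the right, at 50.4 FPKM or more at 0 d.

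The silent part of the genome at 0 d was large, and little of it came on. No count was found for 21567 genes at 0 d and for 20978 at 50 d, and 17947 genes were without a count at both. Of the 21567 silent genes, 3620 had a count at 50 d, 1066 had one in all 3 libraries, and 231 (1.07%) met the limits for coming on. In the mirror comparison 381 genes with a count in all 3 libraries of 0 d had none at 50 d, and 19 genes went off. The genes that came on stayed at low levels. Their median was 2.70 FPKM at 50 d and 29 of them reached 10 FPKM. The lower limit ran through a continuum, with Chr15.g03886, annotated as an ABC transporter of the G family, just inside at 1.01 FPKM and Chr8.g56086, a probable ubiquitin ligase, just outside at 0.971 FPKM. A count of 0 in a library does not show that a gene was off, and 3 counts over the 3 libraries of 0 d were taken as the floor behind every fold given as a lower bound. These floors cover counting error only.

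Most of the genes that came on did so late. In the 20 d libraries, which the definition did not use, their median level was 6.99% of that at 50 d (quartiles 1.93% and 23.2%), and 31 of the 231 still had no count. Another 5 genes stood higher at 20 d than at 50 d. A Swiss-Prot name was attached to 170 of them (73.6%), near the 77.0% of all tested genes, and 36 carried no annotation of any kind.

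The 2 highest genes that came on with a known product were β-glucosidase 12 genes on chromosome 11, 6 genes apart. These enzymes release sugars and aglycones from glucosides. Chr11.g10799 (chromosome 11, 9878753 to 9881893, plus strand) had no count at 0 d, 2.81, 4.24 and 7.74 FPKM in replicates A, B and C at 20 d, and 111, 70.7 and 75.4 FPKM at 50 d. Chr11.g10793 (9784746 to 9787965, minus strand) reached 76.3, 62.9 and 70.6 FPKM at 50 d. All 50 d replicates of both genes were thus far above every library of the other stages, and the rises were at least 1856-fold and at least 1581-fold. Another 2 β-glucosidase 12 genes, Chr2.g41708 and its neighbour Chr2.g41707, also came on, the first with a mean of 16.1 FPKM. No source used here says how reads matching several copies were counted, which leaves the split between such copies uncertain.

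Some photosynthesis and pigment genes came on, namely 3 of the 67 tested genes of the photosystem list, 1 of 50 of the Calvin cycle list and 1 of 32 of the flavonoid list. Over all 28339 tested genes 229 came on, and 1 gene in a list says nothing about the list. Chr7.g32418, a chloroplast sedoheptulose bisphosphatase of the Calvin cycle, had 49.0, 62.7 and 45.4 FPKM at 50 d, at least 1203-fold above the floor. Plastocyanin A (Chr8.g53605), an electron carrier of the thylakoid, had 13.0, 17.0 and 20.5 FPKM, with 0.765, 0.432 and 1.69 FPKM at 20 d. The chlorophyll a-b binding protein gene Chr1.g57506 had a mean of 11.8 FPKM and the ferredoxin-NADP reductase gene Chr2.g42203 a mean of 7.75 FPKM. Every one of these genes was without a count in the 0 d libraries. On the pigment side stood leucoanthocyanidin dioxygenase (Scaffold9.g34897, mean 6.70 FPKM), an enzyme of anthocyanin synthesis, and phenylalanine ammonia-lyase 1 (Chr4.g39447, 6.68 FPKM), the entry to the phenylpropanoids. The name anthocyanin regulatory C1, given to MYB factors that in maize switch on anthocyanin genes, was attached to 4 genes that came on, as often as any other name.

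The hormone lists held 5 of the 231 genes that came on, out of 313 tested genes. Of these, 3 were in the gibberellin synthesis list and 2 in the list of auxin-responsive proteins (SAUR, IAA and GH3). The genes named in this paragraph are not the same 5, since neither list covers gibberellin receptors. YUCCA10 (Chr3.g17729), a flavin monooxygenase of auxin synthesis, had 1.04, 0.329 and 2.55 FPKM at 20 d and 47.4, 22.4 and 20.6 FPKM at 50 d, at least 648-fold above the floor. Replicate A of 50 d was the highest for this gene, and all 3 exceeded every 20 d library. The last enzyme making active gibberellin, gibberellin 3-oxidase, was represented by 3 genes that came on at low level. Chr17.g26837 had 1.09, 2.34 and 1.38 FPKM at 50 d, and its neighbour Chr17.g26834 had 0.895, 1.23 and 0.944 FPKM. Both were already near these levels at 20 d, with 1.25, 0.333 and 1.88 FPKM for the former. Chr9.g45229 was instead under 0.1 FPKM in each 20 d library and had 1.10, 2.23 and 0.911 FPKM at 50 d. A gibberellin receptor gene (Chr12.g35281) came on with a mean of 1.02 FPKM, just over the limit.

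The remaining abundant genes that came on were of mixed function. Chr10.g16564, whose product has a domain of unknown function, had 76.0, 71.1 and 80.2 FPKM at 50 d, after 0, 0.0983 and 1.33 FPKM at 20 d. The unannotated gene Chr5.g07360 had 72.3, 53.0 and 51.5 FPKM, and had reached 16.7, 1.04 and 15.4 FPKM at 20 d. Its 20 d libraries disagreed by over 10-fold, while those of 50 d lay close together. A 14 kDa proline-rich protein of the DC2.15 type (Chr6.g52711) had 56.8, 22.6 and 38.8 FPKM. The sugar exporter SWEET14 (Chr11.g13279) had 34.0, 21.8 and 29.2 FPKM, and a benzyl alcohol O-benzoyltransferase (Chr9.g44558), which forms a scent ester, had 42.1, 36.4 and 38.0 FPKM. Chr13.g24346, an MLP-like protein 28, had no count in any library of 0 d or 20 d and 23.5, 36.3 and 20.8 FPKM at 50 d. The unannotated Chr17.g25702 and Chr3.g20256 completed the 12 highest, the latter with a wide spread of 16.3, 26.1 and 53.6 FPKM.

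**Figure D2:**
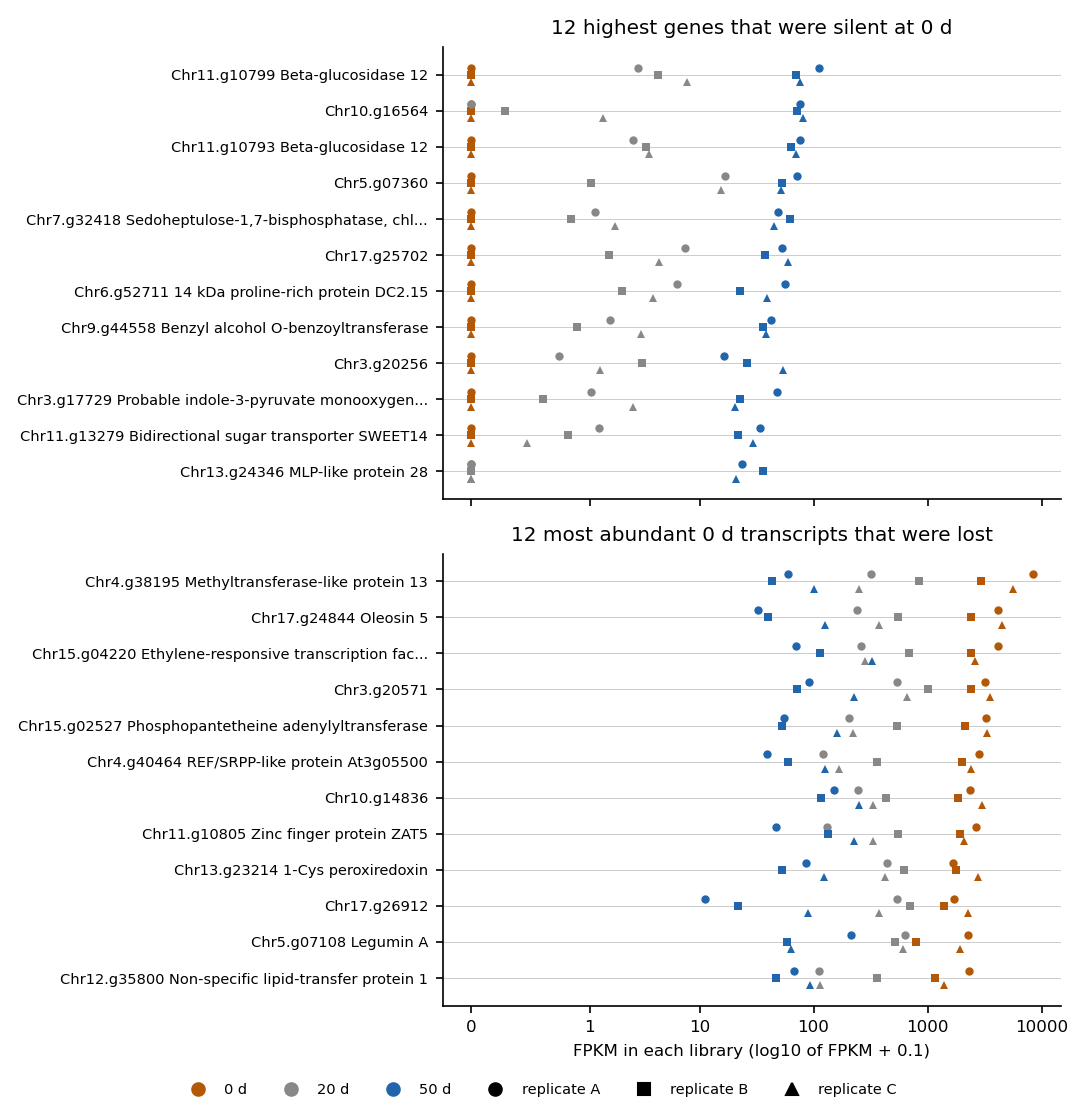
Level of the 12 highest genes that came on and the 12 highest lost transcripts in each of the 9 libraries, as log10 of FPKM + 0.1, with colours for stages and symbols for replicates. The genes that came on are absent in all 0 d libraries and 16.3 to 111 FPKM at 50 d, and the lost transcripts fall from 791 FPKM or more at 0 d to 326 FPKM or less at 50 d.

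Lost transcripts lay at higher levels than the genes that came on because their limit was 50 FPKM instead of 1 FPKM. Against the gained transcripts, which had the same limit, the median high level was 158 FPKM for lost and 116 FPKM for gained. At 0 d 3586 genes had a mean of at least 50 FPKM. Of these, 1129 were called lower at 50 d, 85 were called higher and 181 (5.05%) counted as lost. Among the 263 genes of at least 500 FPKM 34 were lost, and among the 84 of at least 1000 FPKM 19 were. The median lost transcript kept 5.08% of its 0 d level, but loss was seldom silence, as only 3 of the 181 fell below 1 FPKM. Lost transcripts made up 8.18%, 6.98% and 8.08% of the summed FPKM at 0 d and 0.405%, 0.410% and 0.576% at 50 d. Most of this fall was in place by 20 d, when they made up 1.40%, 1.79% and 1.42%. The median level at 20 d was 15.4% of that at 0 d, and 179 of the 181 genes lay between the endpoints. At the edge, Chr12.g35872, a WRKY factor, kept just under 10% and the pectinesterase gene Chr6.g51234 kept 10.1%. The lost transcripts were short, with a median length of 921 bases against 1497 bases for tested genes. In whole seeds, fewer cells of a type and less RNA per cell cannot be told apart, here and in the results that follow.

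**Figure D3:**
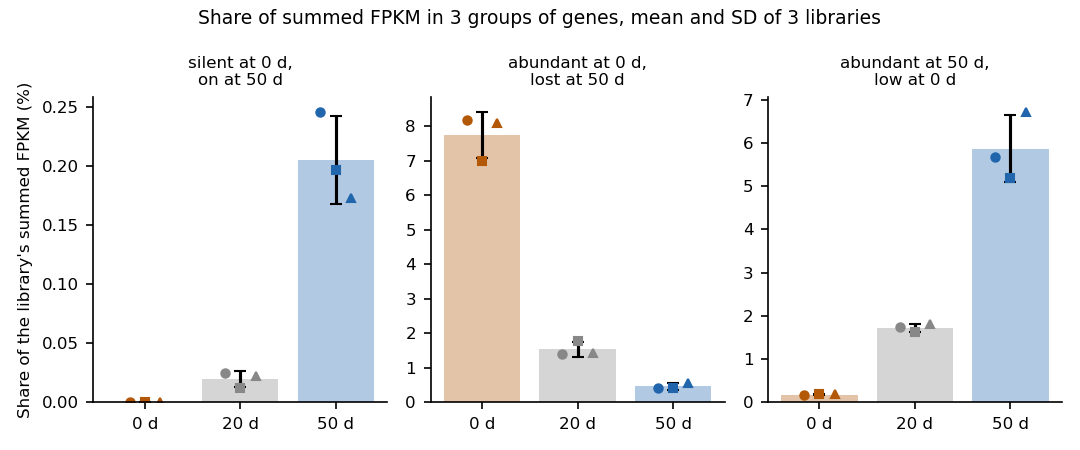
Share of the summed FPKM of each of the 9 libraries held by the 231 genes that came on, the 181 lost and the 137 gained transcripts, in percent on linear axes of their own. Bars are means and error bars SDs of 3 libraries, and points are the libraries. The lost share falls from at least 6.98% at 0 d to at most 0.576% at 50 d, the gained share rises to at least 5.20%, and the genes that came on stay at 0.246% or less.

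The lists for reserve and desiccation proteins held 9 of the 181 lost transcripts, out of 170 tested genes in these lists. Over all 28339 tested genes, 181 were lost. Several of the 9 were very abundant at 0 d. Oleosin 5 (Chr17.g24844, chromosome 17, 1506420 to 1507234, plus strand) had 4086, 2409 and 4453 FPKM at 0 d, 240, 552 and 371 FPKM at 20 d and 32.4, 39.7 and 127 FPKM at 50 d. Every library of 0 d was above every library of 50 d, as in all 181 lost transcripts, a gap that their definition makes likely. The log2 change was -5.73 ± 0.63 (SE, n = 3 per stage, edgeR adjusted p = 6.34e-05). Chr3.g20571, which carries an oleosin domain without a Swiss-Prot name, fell from 3168, 2394 and 3504 FPKM to 90.4, 71.1 and 224 FPKM. Outside these lists, the 1-cysteine peroxiredoxin Chr13.g23214, an antioxidant enzyme typical of mature seeds, fell from 1674, 1773 and 2727 FPKM to 86.1, 53.1 and 124 FPKM. Legumins are storage globulins, and 2 neighbouring legumin genes were lost. Legumin A (Chr5.g07108) had 2246, 791 and 1929 FPKM at 0 d against 213, 58.5 and 63.3 FPKM at 50 d, with a log2 change of -3.81 ± 0.59 (edgeR adjusted p = 0.000448). Legumin B (Chr5.g07109) went from 1285 ± 594 to 87.0 ± 31.6 FPKM (SD, n = 3). For both legumins, replicate B of 0 d was the lowest of its stage and still exceeded all 50 d libraries.

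LEA proteins, tonoplast channels and a small heat shock protein followed the same course. The Em-like LEA protein GEA1 (Chr4.g40086) fell from 1459, 996 and 2197 FPKM to 24.6, 22.6 and 81.5 FPKM. LEA D-34 (Chr3.g17855) kept least of these, going from 217, 153 and 340 FPKM to 1.28, 0.726 and 5.63 FPKM. The seed tonoplast aquaporins TIP3-2, on chromosome 14 (Chr14.g50630) and on chromosome 6 (Chr6.g50688), went from means of 589 and 402 FPKM to 22.0 and 16.7 FPKM. In each of these genes the 2 stages did not overlap, which the definition of lost transcripts makes likely. A 17.9 kDa class II heat shock protein (Chr8.g54189), a chaperone, varied widely at 0 d with 714, 1000 and 2569 FPKM, and stood at 15.0, 36.2 and 63.5 FPKM at 50 d.

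The most abundant lost transcript was not a reserve protein. Chr4.g38195 (chromosome 4, 962724 to 965372, plus strand), named as a methyltransferase-like protein 13, had 8310, 2942 and 5523 FPKM at 0 d and 60.0, 43.1 and 101 FPKM at 50 d, which left 1.22%. Its log2 change was -6.30 ± 0.67 (edgeR adjusted p = 5.01e-05). Phosphopantetheine adenylyltransferase (Chr15.g02527), an enzyme of coenzyme A synthesis, fell from 3269, 2120 and 3325 FPKM to 54.7, 52.6 and 160 FPKM. A small rubber particle-like protein of the REF/SRPP family (Chr4.g40464) fell from 2813, 2012 and 2405 FPKM to 38.8, 59.7 and 125 FPKM. The stages did not overlap for any of these 3 genes, as for every lost transcript by the nature of the definition. Proliferating cell nuclear antigen (Chr3.g20225), the sliding clamp of DNA polymerase, had 1073, 578 and 816 FPKM at 0 d and 35.4, 34.8 and 43.6 FPKM at 50 d. The unannotated Chr10.g14836 and Chr17.g26912 were also among the 12 highest lost transcripts, with means of 2394 and 1774 FPKM at 0 d.

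Transcription factor lists held 15 of the 181 lost transcripts, out of 725 tested factors, against 181 of all 28339 tested genes. ZAT5 and MOTHER OF FT AND TFL1, also named here, lie outside these lists. ERF008 (Chr15.g04220), of the ethylene response factor family, had 4082, 2379 and 2619 FPKM at 0 d against 70.1, 114 and 326 FPKM at 50 d. The zinc finger factor ZAT5 (Chr11.g10805) had 2642, 1912 and 2066 FPKM against 46.7, 133 and 226 FPKM. Both had replicate C as the highest at 50 d, still below all 0 d libraries, and their log2 changes were -4.10 ± 0.62 and -3.98 ± 0.63 (edgeR adjusted p = 0.000395 and 0.000505). ERF110 (Chr10.g17102) went from 748 ± 121 to 14.6 ± 5.12 FPKM and bZIP60 (Chr6.g53489), known from the response to unfolded proteins, from 856 ± 121 to 36.9 ± 14.9 FPKM (SD, n = 3). The AP2 factor ABR1 (Chr15.g01470), a repressor of abscisic acid responses in Arabidopsis, went from 654 ± 25.2 to 28.5 ± 14.0 FPKM. The MADS-box factor AGL24 (Chr8.g55795), a flowering regulator in Arabidopsis, went from 199 ± 45.4 to 8.43 ± 5.01 FPKM. MOTHER OF FT AND TFL1 (Chr6.g50845), a regulator of seed germination, was lost later, with 149, 93.1 and 175 FPKM at 0 d, 110, 183 and 77.6 FPKM at 20 d and 7.46, 10.6 and 16.1 FPKM at 50 d.

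The study measured some of these genes by quantitative PCR as well, and its primer pairs show which gene copies were addressed. They are printed 5′ to 3′ in lower case for 3 lost transcripts, 1 gained transcript and malate synthase. The PCR values themselves were not used here.
GA2ox1 forward: agccgcataaatcacagcac
GA2ox1 reverse: acctatcctgaatcctgagtact
ACS1 forward: tgcggaaggagttgagaagt
ACS1 reverse: tgactcaaccacctcatgct
NAC42 forward: aagcgcgaggctgagaagt
NAC42 reverse: gctcttacgacagtccaatctcaa
RAV2 forward: agctggtgatgttgtgagga
RAV2 reverse: tgaaccccagactatcgacg
MLS forward: tgtttgggagagtggtggag
MLS reverse: tggtgaaaatcctgcaagcc

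Gibberellin 2-oxidases inactivate gibberellins, and GA2ox1 (Chr10.g15067, chromosome 10, 23714779 to 23716730, plus strand), the gene of the first primer pair, was lost. It had 682, 387 and 410 FPKM at 0 d, 69.0, 119 and 96.8 FPKM at 20 d and 12.5, 20.6 and 29.5 FPKM at 50 d. The 3 stages were separate in rank, and the log2 change was -4.50 ± 0.43 (edgeR adjusted p = 3.19e-05). ACS1 (Chr17.g27096, chromosome 17, 23222816 to 23223853, minus strand), an aminocyclopropane carboxylate synthase that makes the precursor of ethylene, had 260, 94.6 and 161 FPKM at 0 d and 0.389, 1.77 and 5.38 FPKM at 50 d (log2 change -6.07 ± 0.92, edgeR adjusted p = 0.000391). The NAC factor of the third pair (Chr17.g26000, chromosome 17, 9739419 to 9741619, plus strand), JUNGBRUNNEN 1 in the annotation and known from Arabidopsis as a brake on senescence, had 62.9, 51.5 and 51.6 FPKM against 1.31, 4.47 and 2.97 FPKM. RAV2 (Chr17.g25338, chromosome 17, 4671974 to 4672939, plus strand), a repressor with AP2 and B3 domains, moved the other way. It had 0.0839, 0.193 and 0.836 FPKM at 0 d, 3.24, 2.24 and 4.18 FPKM at 20 d and 80.2, 73.1 and 50.6 FPKM at 50 d, a log2 change of 7.55 ± 0.63 (edgeR adjusted p = 1.73e-05). Between the endpoints these 4 genes did not overlap in any replicate, as was so for every lost and gained transcript. The definition of these groups makes that likely, and 55.6% of all tested genes did not overlap either.

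Gained transcripts were defined by a higher level than the genes that came on, so the shares of the 2 groups are given side by side only, and 6 genes belonged to both. Of the 2664 genes with at least 50 FPKM at 50 d, 534 were called higher and 137 (5.14%) had at most 10% of that level at 0 d. These gained transcripts went from 0.163%, 0.192% and 0.190% of the summed FPKM at 0 d to 5.68%, 5.20% and 6.71% at 50 d, and the genes that came on reached 0.246%, 0.197% and 0.173%. At 20 d the median gained transcript stood at 30.9% of its 50 d level. The cysteine protease vignain (Chr14.g49736), known from the breakdown of storage protein in germinating legume seeds, had 0.0468, 0.252 and 0.594 FPKM at 0 d and 1055, 572 and 812 FPKM at 50 d. Its log2 change of 11.44 ± 0.89 (edgeR adjusted p = 1.46e-05) rested on 22 counts over the 0 d libraries. Flavonol synthase (Chr15.g01055) had 4 counts in all at 0 d and 133, 81.3 and 91.9 FPKM at 50 d. Other gained transcripts were already well expressed. The early nodulin 93 gene Chr15.g03274 went from 279, 217 and 390 FPKM to 2317, 1705 and 6156 FPKM, and metallothionein 2 (Chr4.g39784), a metal-binding protein, from 124, 104 and 118 FPKM to 2264, 1868 and 4925 FPKM. Replicate C of 50 d was the highest for both of these genes, and even the lowest 50 d replicate was far above the 0 d libraries.

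Genes that went off were rare and low. The highest of the 19, Chr13.g23147, had a mean of 14.8 FPKM at 0 d and no count at 50 d. Among the 231 genes that came on 63 (27.3%) belonged to a functional list described below, as did 47 of the 181 lost (26.0%) and 57 of the 137 gained (41.6%), against 16.5% of tested genes. The lists were drawn from annotation words and chosen with earlier results of these data known. These higher shares may follow from that choice, which was not tested. Counts within a list read against the 15.6% of tested genes called higher and the 11.0% called lower.

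**Figure D4:**
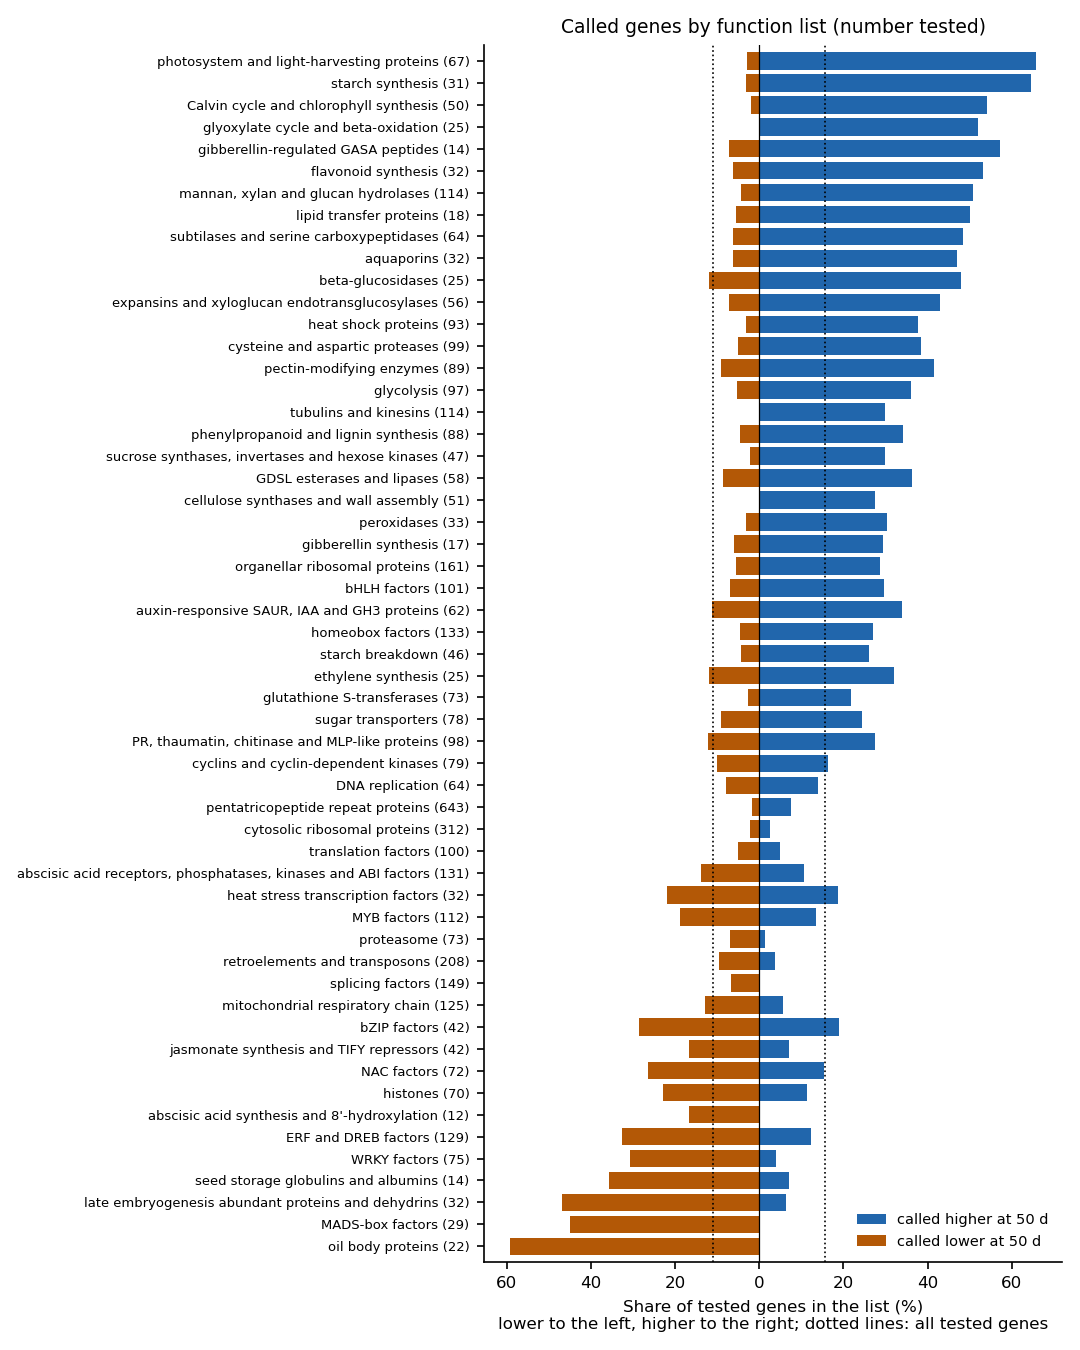
Percent of tested genes called lower (bars to the left) and higher (bars to the right) at 50 d in each functional list with at least 12 tested genes. The dotted lines mark 11.0% lower and 15.6% higher over all tested genes. Oil body proteins (13 of 22 lower) and photosystem proteins (44 of 67 higher) lie at opposite ends.

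Reserve and desiccation lists were lower at 50 d. Among oil body proteins 13 of 22 tested genes fell and none rose, with a median log2 change of -2.41. Summed over the list, the level was 26160, 17720 and 30660 FPKM at 0 d and 3282, 2518 and 6506 FPKM at 50 d. Among LEA proteins and dehydrins 15 of 32 fell and 2 rose (median -1.31), and among storage proteins 5 of 14 fell and 1 rose (median -0.76). The most abundant oleosin, oleosin 1 (Chr7.g32129), was retained longer than oleosin 5. It had 10430, 6140 and 11667 FPKM at 0 d, 8808, 11729 and 7538 FPKM at 20 d and 1309, 829 and 2802 FPKM at 50 d (log2 change -2.46 ± 0.48, edgeR adjusted p = 0.00176), and this call was not made by limma on log2 FPKM. The dehydrin Chr2.g42292 had 9233, 6460 and 8661 FPKM at 0 d and 957, 1264 and 2668 FPKM at 50 d, and its call (log2 change -2.26 ± 0.45, edgeR adjusted p = 0.00196) was lost without replicate B of 50 d. A second dehydrin, Chr15.g02573, held its level to 20 d, with 5740, 6604 and 10694 FPKM at 0 d, 7137, 5087 and 7158 FPKM at 20 d and 591, 749 and 1326 FPKM at 50 d. An exception in direction was Chr3.g17665, named as the desiccation-related protein PCC13-62, which rose from 0.310 ± 0.393 to 219 ± 82.0 FPKM (SD, n = 3). Small sugar reserves were covered by 9 genes for galactinol, raffinose and stachyose synthesis, of which 4 fell and none rose.

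Heat shock proteins did not share the fall of the other protective lists. Of 93 tested genes 35 rose and 3 fell, with a median log2 change of 1.40. The list sum overlapped between the stages, at 10126, 12329 and 16294 FPKM at 0 d and 11591, 15435 and 17210 FPKM at 50 d. The 23.6 kDa mitochondrial member Chr7.g32081 had 67.2, 107 and 153 FPKM at 0 d against 326, 453 and 556 FPKM at 50 d. Its values stood against those of the class II member Chr8.g54189 above, the list's most abundant loss.

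Most lists for using the reserves had more rises than falls. The glyoxylate cycle turns fatty acids from oil into sugar precursors, and 13 of 25 tested genes of this cycle and of β-oxidation rose while none fell (median 1.51). Malate synthase (Chr6.g51605), the gene of the last primer pair, had 270, 446 and 475 FPKM at 0 d, 2841, 826 and 3140 FPKM at 20 d and 3757, 3757 and 2120 FPKM at 50 d (log2 change 3.08 ± 0.53, edgeR adjusted p = 0.000878). Isocitrate lyase (Chr9.g46455) had 32.9, 51.5 and 83.9 FPKM, then 1356, 462 and 1385 FPKM, then 2214, 1883 and 837 FPKM. In both genes replicate B was the low library at 20 d and replicate C at 50 d, and no replicate of 0 d reached either. Among cysteine and aspartic proteases 38 of 99 rose and 5 fell, and among subtilases and serine carboxypeptidases 31 of 64 rose and 4 fell. Starch was covered from both sides, with 20 of 31 genes of its synthesis higher and 1 lower (median 2.37), and 12 of 46 genes of its breakdown higher and 2 lower (median 1.02). The summed level of the breakdown list was 935, 830 and 965 FPKM at 0 d and 820, 755 and 802 FPKM at 50 d. The FPKM summed over all genes fell as well, so no direction is given for this sum. In glycolysis 35 of 97 rose and 5 fell, whereas in the mitochondrial respiratory chain 7 of 125 rose and 16 fell (median -0.18).

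Cell wall and growth lists rose broadly. Expansins loosen walls and xyloglucan endotransglucosylases recut their hemicellulose, and 24 of these 56 genes rose and 4 fell (median 2.42). Expansin A4 (Chr12.g36256) had 2.75, 3.03 and 3.39 FPKM at 0 d, 145, 116 and 139 FPKM at 20 d and 165, 187 and 117 FPKM at 50 d. The probable polygalacturonase Chr1.g57939, which cuts pectin, had 2.61, 2.62 and 2.77 FPKM, then 101, 68.0 and 117 FPKM, then 143, 160 and 163 FPKM. Replicates of these genes lay close together within a stage, and both genes had made most of their rise by 20 d. Among pectin-modifying enzymes 37 of 89 rose and 8 fell, among mannan, xylan and glucan hydrolases 58 of 114 rose and 5 fell, and among β-glucosidases 12 of 25 rose and 3 fell. The summed level of the pectin list, uncorrected for the lower FPKM total at 50 d, was 1651, 826 and 931 FPKM at 0 d and 857, 1012 and 926 FPKM at 50 d. Tubulins and kinesins, of the microtubule system, had 34 of 114 genes higher and none lower (median 1.94). Of 32 aquaporins 15 rose and 2 fell, these 2 being the TIP3-2 genes described above. The summed aquaporin level, uncorrected in the same way, was 1993, 1287 and 2349 FPKM at 0 d and 1477, 1760 and 1999 FPKM at 50 d.

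Photosynthesis lists had many rises. Of 67 genes for photosystem and light-harvesting proteins 44 rose and 2 fell (median 3.11), and of 50 genes for the Calvin cycle and chlorophyll synthesis 27 rose and 1 fell (median 1.90). The oxygen-evolving enhancer protein 1 gene Chr15.g02399 had 2.03, 0.998 and 3.82 FPKM at 0 d, 15.3, 19.6 and 20.5 FPKM at 20 d and 66.8, 80.3 and 107 FPKM at 50 d. Rubisco small subunit genes went both ways. Chr17.g27381 rose from 1.03, 1.26 and 1.25 FPKM to 157, 183 and 183 FPKM, while Chr13.g24193 fell from 157, 102 and 101 FPKM to 7.88, 10.5 and 20.4 FPKM. The 2 genes thus exchanged places as the higher copy. Flavonoid synthesis, with 17 of 32 genes higher and 2 lower (median 2.15), rose in the list sum from 184, 147 and 170 FPKM to 636, 409 and 494 FPKM.

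The hormone lists differed by step. Gibberellin 2-oxidases fell in 4 of 8 tested genes and rose in 1 (median -3.02), and the summed level went from 735, 434 and 442 FPKM to 20.0, 27.6 and 41.5 FPKM, most of it GA2ox1. Gibberellin synthesis genes rose in 5 of 17 and fell in 1, at far lower levels. GASA peptides, small secreted proteins whose genes respond to gibberellin, rose in 8 of 14 and fell in 1 (median 2.89). Their summed level overlapped between the stages, at 1932, 1123 and 1466 FPKM at 0 d and 1493, 1282 and 2961 FPKM at 50 d. Among the GASA genes, Chr17.g25039 had 0.140, 1.07 and 2.41 FPKM at 0 d and 240, 257 and 419 FPKM at 50 d. Chr17.g24939 had 24.7, 12.7 and 16.1 FPKM against 296, 254 and 583 FPKM. Ethylene synthesis genes rose in 8 of 25 and fell in 3, and their sum was 346, 172 and 247 FPKM at 0 d and 133, 153 and 201 FPKM at 50 d. Beside the fall of ACS1 stood the rise of the aminocyclopropane carboxylate oxidase ACO1 (Chr15.g03051), the last enzyme of the same route, from 0.530, 0.371 and 0.306 FPKM to 52.6, 38.0 and 90.0 FPKM. For jasmonate synthesis and its TIFY repressors 3 of 42 rose and 7 fell (median -0.48). The sign of the median of the abscisic acid lists changed with the scaling, so no direction is given for them.

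Transcription factor families fell apart into those with more losses and those with more gains. MADS-box factors fell in 13 of 29 tested genes and rose in none (median -1.40). WRKY factors, known mostly from stress responses, fell in 23 of 75 and rose in 3 (median -0.84), and their summed level went from 1336, 1022 and 1051 FPKM to 307, 371 and 421 FPKM. ERF and DREB factors fell in 42 of 129 and rose in 16. Their largest rise in level was RAP2-3 (Chr16.g29940), a factor of the low-oxygen response in Arabidopsis, with 134, 167 and 221 FPKM at 0 d and 1230, 946 and 1335 FPKM at 50 d. NAC factors fell in 19 of 72 and rose in 11, and bZIP factors fell in 12 of 42 and rose in 8. Homeobox factors rose in 36 of 133 and fell in 6 (median 1.03), and bHLH factors rose in 30 of 101 and fell in 7 (median 1.03). The summed bHLH level, uncorrected for the lower FPKM total at 50 d, was 1047, 800 and 893 FPKM at 0 d and 795, 782 and 862 FPKM at 50 d.

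The lists for core machinery differed among themselves. Of 312 cytosolic ribosomal protein genes 8 rose and 7 fell, and of 149 splicing factor genes none rose and 10 fell. Organellar ribosomal protein genes rose in 46 of 161 and fell in 9, and histone genes fell in 16 of 70 and rose in 8. Histone H3.3 (Chr8.g55684), the variant deposited outside replication, went from 3101, 1694 and 2068 FPKM to 198, 263 and 520 FPKM, while the replication-linked histone H3.2 gene Chr10.g14254 went from 36.6, 23.2 and 48.7 FPKM to 139, 235 and 420 FPKM. The 2 genes moved in opposite directions without overlap between stages, and their levels had come close by 50 d. The most abundant transcript of all at 0 d, the metallothionein-like gene Chr12.g36271, was not called. It had 13291, 9316 and 13510 FPKM at 0 d and 2814, 3044 and 7268 FPKM at 50 d, a log2 change of -1.41 (edgeR adjusted p = 0.0312). As markers of seed coat, 11 tested genes of flavanol and pigment synthesis held 139 to 172 FPKM in sum at 0 d and 114 to 166 FPKM at 50 d, with 4 genes higher and 3 lower.

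Neighbouring copies of one family could move in opposite directions. Non-specific lipid transfer proteins carry lipids to the cell surface, and 5 of their genes stand in a row on the plus strand of chromosome 12 between 22323237 and 22348619. Chr12.g35800 (22342182 to 22342933) was lost, with 2314, 1158 and 1384 FPKM at 0 d, 111, 361 and 113 FPKM at 20 d and 67.3, 46.7 and 93.5 FPKM at 50 d. Chr12.g35802 (22328874 to 22330015) had 26.9, 16.6 and 17.4 FPKM, then 1011, 1423 and 1369 FPKM, then 2975, 3713 and 7350 FPKM, which made it the most abundant gained transcript. The former thus gave way to the latter between 0 d and 20 d, in every replicate, with log2 changes of -4.49 ± 0.56 and 7.90 ± 0.53 over the whole period (edgeR adjusted p = 0.000126 and 7.52e-06). The outer gene Chr12.g35803 rose from a mean of 40.3 FPKM to 207, 351 and 642 FPKM, and Chr12.g35799 from 7.64 FPKM to 33.3, 51.0 and 138 FPKM. Chr12.g35801 was highest at 20 d, with 55.2, 95.0 and 56.3 FPKM against 15.3, 42.5 and 82.7 FPKM at 50 d. Over the lipid transfer list 9 of 18 genes rose and 1 fell, and its sum went from 2811, 1473 and 1764 FPKM to 4955, 5689 and 11476 FPKM. The split of reads between these copies is uncertain for the reason given above.

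**Figure D5:**
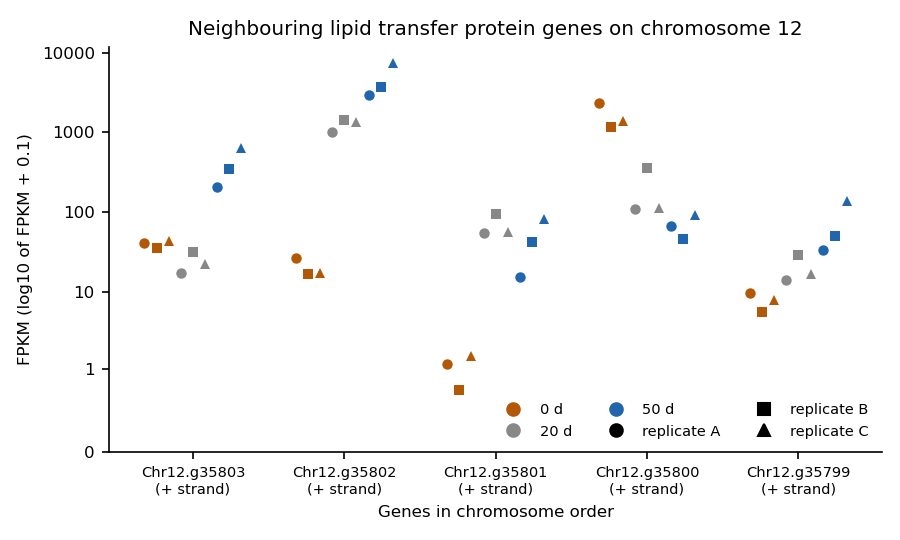
Level of 5 neighbouring lipid transfer protein genes on chromosome 12 in each of the 9 libraries, as log10 of FPKM + 0.1, side by side in their order along the chromosome with colours for stages. Chr12.g35800 falls from at least 1158 FPKM at 0 d to at most 93.5 FPKM at 50 d, while Chr12.g35802 rises from at most 26.9 FPKM to at least 2975 FPKM.

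A second row of copies lay on chromosome 13, where several MLP-like genes, of a family of small pathogenesis-related proteins, rose. Beside Chr13.g24346, which came on, Chr13.g24349 had 2 counts over all 0 d libraries and 225, 180 and 216 FPKM at 50 d, and Chr13.g24354 had 7 counts and 38.5, 18.4 and 28.8 FPKM. In these 3 genes the rise came after 20 d, when each was under 2 FPKM in every library. Neighbours of the same name were rare. Of the 231 genes that came on, 35 lay within 10 genes of any other member of their group. A member of the same name lay that close for 8 of them. For the 181 lost transcripts these numbers were 42 and 2.

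Some of the lost transcripts lay on scaffolds whose genes carry organelle names, a group noticed after the values were seen. On scaffolds 17, 23 and 26 of the assembly 80 genes were tested, of which 33 were called lower and none higher, and the log2 change of all 80 was below 0 (median -3.62). They gave 13 of the 181 lost transcripts, 5 of them the lost transcripts that were not called, and 168 lost transcripts remained without them. Their share of the summed FPKM was 0.513% in replicate A of 0 d against 0.154% and 0.205% in B and C, and 0.0240% to 0.0282% at 50 d. At 20 d it was 0.140% in replicate B against 0.0120% and 0.0187% in A and C. No source used here says whether RNA selection was the same in all libraries, and its part in these values was not tested. Replicate A of 0 d was the highest library for 68 of the 80 genes.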

How the data were processed

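RNA was extracted from whole seeds, and the 9 libraries were grouped by days of stratification, 3 per stage. The authors filtered the reads and aligned them with HISAT2 (named in the submitters' processing notes) to the wild pear genome. The deposited table holds whole-number counts per gene and library, with no normalization, beside FPKM values that the authors computed from gene length and a scaled library size. No source used here gives the counting tool, its use of strand or its treatment of reads with several matches. The authors' own fold changes and adjusted p-values, held in further columns, were not used.

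Counts were normalised by TMM, filtered by filterByExpr and fitted over all 9 libraries with edgeR 4.0.16 (quasi-likelihood, R 4.3.3). The contrast of 50 d against 0 d was adjusted by Benjamini-Hochberg. The SE of a log2 change was derived from the test, as its size divided by the square root of the quasi-likelihood F statistic. It was not estimated separately and is rough for genes with few counts at 0 d or 50 d. The limits for a call were those of the study's methods. Alternatives used DESeq2 1.42.0, limma 3.58.1 on log2(FPKM + 1) and log2(FPKM + 0.1), other limits, a loess trend over gene length, a replicate block and each replicate left out. Lists came from Swiss-Prot and Pfam words in the table, 59 in all. The edgeR step was tested on simulated data. Tables and figures were made with Python 3.11.15, pandas 2.3.3, numpy 2.4.6 and matplotlib 3.10.9.

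By rule, the text could name the 12 highest genes that came on, the 12 highest lost transcripts, the 10 most abundant genes at each stage and, per list, the most abundant called gene in each direction. The comparison, the groups and the lists were chosen with earlier results of these data known. Separate seed bulks are the only replicates, so p-values measure the spread between such bulks. Primer sequences were copied from the study's supplementary table.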

Additional observations from a re-analysis of the deposited data

How the results depend on the processing

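The number of called genes was 7536 and became 4996 with at least 1 FPKM in both stages, 3921 when tested against a log2 change of 1 (glmTreat), and 4814 to 7613 with 1 replicate left out. The rises (4422) became 2409, 2584 and 2756 to 4296 under the same settings. The falls (3114) became 1337 with glmTreat, 4799 at an adjusted p of 0.05, 5313 with the length trend removed and 1607 to 3317 with 1 replicate left out. DESeq2 called 9812 genes, which included 7519 of the 7536. With the 20 d libraries left out of the edgeR fit, 8976 genes were called. Whether the letters A, B and C pair libraries across stages could not be settled. Deviations of same-letter libraries from their stage means correlated at -0.19, 0.16 and 0.06, but 3 libraries per stage are too few to tell. With the letter as a replicate block, 5163 genes were called and 1977 fell. The 231 genes that came on became 400 when up to 2 counts were allowed at 0 d, 148 with a limit of 2 FPKM and 232 to 340 with 1 replicate left out. The 181 lost transcripts became 278 from 20 FPKM upwards, 88 with at most 5% left, 507 with at most 20% left and 157 to 264 with 1 replicate left out. Leaving out the organelle-named scaffolds, chosen after seeing the data, gave 168. Of 142 named genes, 68 kept their side of the thresholds in all 18 alternatives. The sign turned for 2 uncalled genes, Chr14.g47670 (log2 change -0.085 to 0.93 with 1 replicate left out) and Chr15.g04384 (0.13 with the length trend removed). The cause of these changes was not tested, other than those that follow from a stricter limit or fewer libraries. Depth limits what can be said of the silent genes, as a zero over 3 libraries allows up to 3 counts.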
